A study of Mus musculus with 6 samples.

Results

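The genes described here are 35 antioxidant and NRF2 target genes of primary mouse hepatic stellate cells. They were taken by symbol from a list that holds regulators of NRF2, enzymes that make or use glutathione and thioredoxin, and enzymes that supply NADPH or handle quinones, haem, iron, superoxide and peroxide. All 35 symbols were found among the 24940 genes of the deposited exon count table, and all 35 passed the filter on low counts, which left 12687 genes to test. Female C57BL/6JBomTac mice were the source of the cells. In 3 libraries the cells had received 10 µM obeticholic acid (OCA), a modified bile acid and agonist of the receptor FXR, and in 3 libraries the vehicle DMSO in equal volume. Treatment began 2 days after isolation and lasted 6 hours in both groups, named OCA A to C and DMSO A to C after their replicate letters. Whether replicate libraries stem from different animals or cultures is not in the labels, so every p-value covers only variation among these libraries, which could be of technical origin. No allele or transgene is named in the labels, and both groups were freshly isolated cells in culture, at a single dose and a single time.

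NRF2, encoded by Nfe2l2, is a transcription factor that is held at low levels by KEAP1, which presents it to a ubiquitin ligase. Electrophiles and oxidants modify KEAP1, NRF2 then accumulates, pairs with a small MAF protein and binds antioxidant response elements (AREs) near its target genes, many of which encode enzymes that restore reduced glutathione, thioredoxin and NADPH. Because NRF2 is controlled mostly at the level of the protein, its activity is usually read from the transcripts of its targets. Osgin1, known both as a target of NRF2 and as a target of FXR, is not among the 35 genes, and the comparison asks what the rest of the pathway did.

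Promoter windows show where the ARE core stands in some of these genes. Each window runs from 250 bases before to 50 bases after a gene's start (RefSeq, GRCm38.p6, the assembly called mm10), and 29 of the 35 symbols were in the promoter table. The core TGACNNNGC, searched on both strands, was found in 12 of these 29 genes (41.4%), against 14% of the 27025 genes with a promoter window. Among the further pathway genes read below, 61 had a window and 19.7% of them held the core. A stricter form, TGACTCAGC, which also holds a site of the AP-1 type (TGANTCA), was found in 2 of the 29 genes, Prdx1 and Me1, against 0.503% of all genes. In 9 of the 12 genes with a core among the 29, a core lay wholly before the start. The windows of 6 of them are printed because they belong to NRF2 itself (Nfe2l2), to both small MAF genes of the list (Mafg and Mafk) and to enzymes of glutathione and thioredoxin metabolism whose levels are given below (Gclm, Txnrd1 and Prdx1). Each is written 5′ to 3′ along the gene's strand with up to 30 bases on either side, and the capitals mark the core, which reads in reverse complement where it lies on the other strand:
Nfe2l2, chr2:75704865-75704913, minus strand: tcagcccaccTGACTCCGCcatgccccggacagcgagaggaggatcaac
Mafg, chr11:120633731-120633797, minus strand: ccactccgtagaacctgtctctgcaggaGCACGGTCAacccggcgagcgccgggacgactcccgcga
Mafk, chr5:139791493-139791535, plus strand: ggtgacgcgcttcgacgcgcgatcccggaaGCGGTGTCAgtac
Gclm, chr3:122245393-122245461, plus strand: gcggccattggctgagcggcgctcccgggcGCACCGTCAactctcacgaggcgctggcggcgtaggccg
Txnrd1, chr10:82859084-82859152, plus strand: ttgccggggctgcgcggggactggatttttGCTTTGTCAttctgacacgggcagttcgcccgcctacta
Prdx1, chr4:116685436-116685504, plus strand: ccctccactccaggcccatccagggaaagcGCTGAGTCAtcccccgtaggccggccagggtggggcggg
In Prdx1 the core overlaps the AP-1 type site. The core was in the windows of neither Osgin1 nor Bach1. A match is a description of these letters, and a window without one says nothing about elements elsewhere.

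Before the genes themselves, the libraries have to be described. Their totals ran from 12260882 to 16336240 counts, with DMSO A the deepest and DMSO B the shallowest. Replicates differed beyond the noise of counting, so none was counted as a duplicate. All 11 stellate cell markers were tested, with summed levels of 2616 to 3487 CPM in OCA and 3231 to 3647 CPM in DMSO (CPM, a gene's count relative to the TMM-scaled size of its library). Of the 11, 2 were lower with OCA, Reln and Rgs5 (adjusted p under 0.05 by edgeR), against 3.03% of all tested genes. Markers of other liver cells were low: macrophage markers summed to 8.74 to 8.95 CPM in OCA and 6.36 to 13.6 CPM in DMSO, endothelial markers to 6.91 to 12.1 and 7.24 to 9.49 CPM, cholangiocyte markers to 4.8 to 5.85 and 5.46 to 7.64 CPM, and lymphocyte markers to at most 0.192 CPM in OCA and 0.0651 CPM in DMSO. Of these markers Tat (hepatocytes), Fcgr2b (endothelium), Krt7 (cholangiocytes), Cd3g, Ms4a1 and Nkg7 (lymphocytes) had 0 counts in every library. Others were detected at low levels, among them Alb (hepatocytes) at a mean of 2.30 CPM in OCA and 2.07 CPM in DMSO, Stab1 (endothelium) at 4.604 and 3.877 CPM and Spp1 (cholangiocytes) at 4.16 and 5.74 CPM. Hepatocyte markers without Ass1, a gene of other cells too at 180.1 to 183.7 CPM in OCA and 157.5 to 184.8 CPM in DMSO, summed to 2.68 to 6.98 CPM in OCA and 2.63 to 4.01 CPM in DMSO.

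After OCA 1 of the 35 genes was higher, 1 was lower and 33 did not pass the test (adjusted p under 0.05, quasi-likelihood test of edgeR, Benjamini-Hochberg adjustment over all 12687 genes). Sod3, the secreted superoxide dismutase, rose by 1.32-fold, and Mafk, a small MAF partner of NRF2, fell to 0.859-fold. The background was 5.2% of all tested genes called in either direction, 2.18% higher and 3.03% lower, so 2 calls among 35 genes is a share near the background. At an unadjusted p under 0.05 by the same test the share was 22.9%, against 19% of all tested genes. Upward, 5 of the 35 genes reached it, a larger share than the 8.26% of all tested genes. Downward, 3 of the 35 reached it, against 1357 of all 12687 tested genes. The OCA libraries lay wholly above the DMSO libraries in 2 genes, Gsta4 and G6pdx (background 11.6%), and wholly below them in 3, Mafk, Gclc and Slc7a11 (background 11.3%). Fitted log2 fold changes of OCA over DMSO ran from -0.26 to 0.40, with standard errors (SE) of 0.06 to 0.17, and 31 of the 35 were smaller than 0.2 in size. As everywhere in bulk samples, fewer cells of a type and less RNA per cell cannot be told apart.

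**Figure D1:**
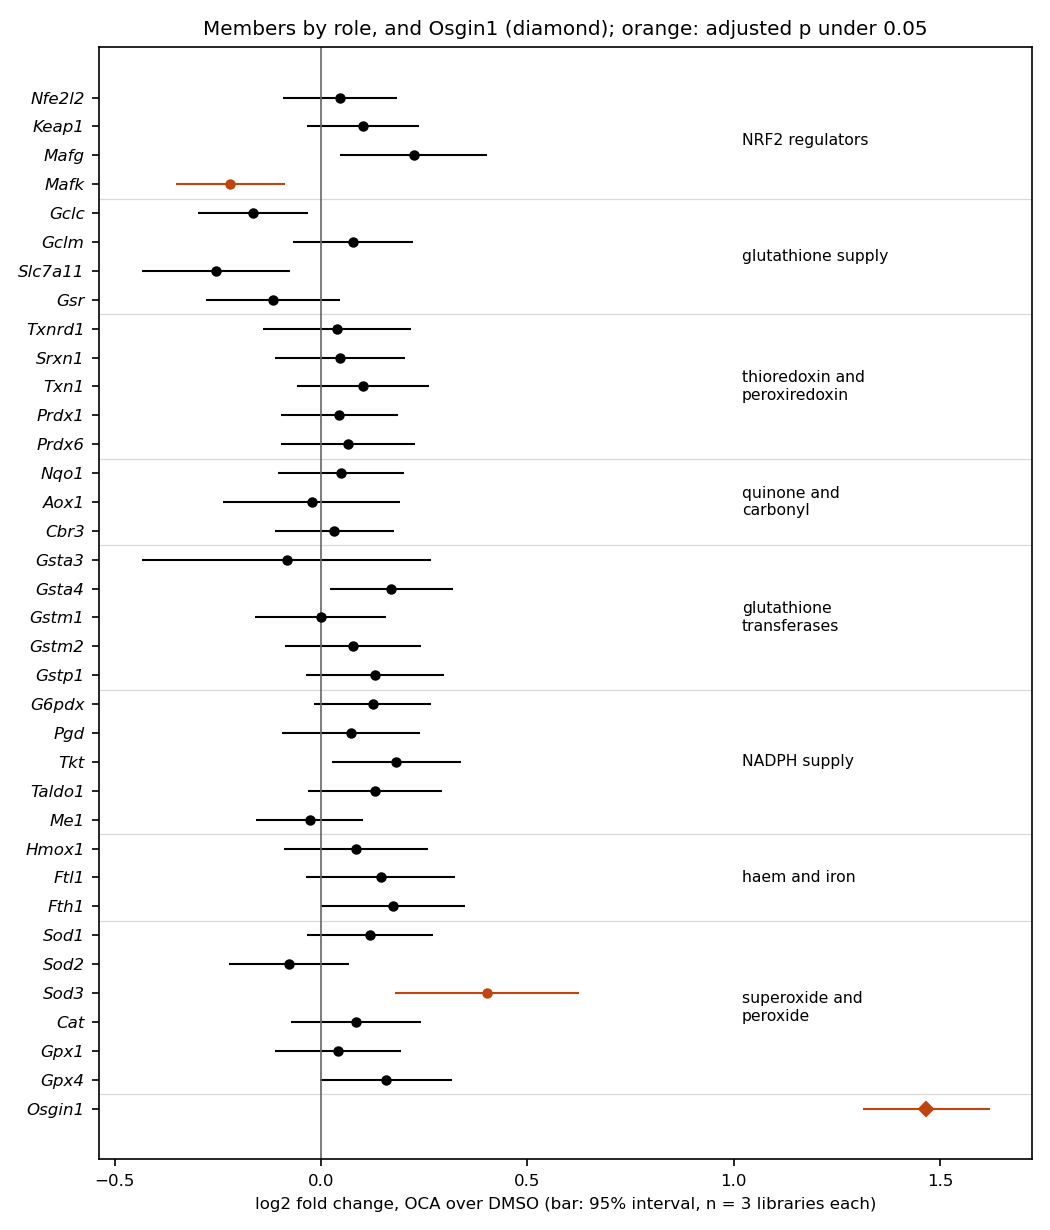
Log2 fold change of OCA over DMSO with its 95% interval for the 35 genes, grouped by role, and for Osgin1 (n = 3 libraries per group); genes with adjusted p under 0.05 are orange. The 35 genes lie between -0.26 and 0.40, only Mafk and Sod3 among them are orange, and Osgin1 lies apart at 1.47.

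The regulators of the pathway come first. Nfe2l2 (mm10 chr2:75675513-75704663, minus strand), the gene of NRF2, had 239, 243 and 254 CPM in OCA A, B and C, against 228, 252 and 233 CPM in DMSO A, B and C. The groups overlapped, since DMSO B lay above OCA A and OCA B. The log2 fold change was 0.05 (SE 0.07, 95% interval 0.938- to 1.14-fold, adjusted p = 0.75). Keap1 (chr9:21229730-21239332, minus strand), the gene of the NRF2 inhibitor, had 143.7, 138.5 and 148.2 CPM in OCA libraries, against 139.5, 133.5 and 127.8 CPM in DMSO libraries. Only DMSO A reached into the OCA range, and the log2 fold change was 0.10 (SE 0.06, adjusted p = 0.41, interval 0.978- to 1.18-fold).

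The small MAF genes encode the DNA-binding partners of NRF2, which also pair with the repressor BACH1. Mafk (chr5:139791536-139802652, plus strand), whose promoter core is printed above, fell to 110.04, 114 and 117 CPM in OCA libraries, against 133, 135 and 129 CPM in DMSO libraries. Every OCA library was below every DMSO library, with a log2 fold change of -0.22 (SE 0.06, interval 0.783- to 0.941-fold). The adjusted p of 0.0494 was close to the threshold, and the call was lost whichever single library was left out. Mafg had 64.2, 67.0 and 75.2 CPM in OCA, against 65.2, 56.0 and 55.2 CPM in DMSO. Its log2 fold change of 0.22 (SE 0.09, adjusted p = 0.147) thus had the opposite sign to that of Mafk, and DMSO A lay within the OCA range. Without OCA B and DMSO A it was 0.33 and was called higher (adjusted p = 0.0093), in 1 of 20 alternatives.

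Of the 4 genes of glutathione supply none passed the test, and 3 had a log2 fold change below 0. Slc7a11 (chr3:50364936-50443613, minus strand), the cystine importer that feeds glutathione synthesis, had 119, 139 and 139 CPM in OCA libraries, against 182, 142 and 148 CPM in DMSO libraries. The groups did not overlap, but OCA B and OCA C lay close to DMSO B and DMSO C, and DMSO A stood above all others. Its log2 fold change was -0.26 (SE 0.09, adjusted p = 0.0953, interval 0.740- to 0.949-fold). Without DMSO A it was -0.14, and without OCA B it was -0.29 and was called lower (adjusted p = 0.0324).

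Gclc (chr9:77754535-77794489, plus strand), the catalytic subunit of glutamate-cysteine ligase, had 124, 133 and 126 CPM in OCA libraries, against 142, 147 and 141 CPM in DMSO libraries. Again no OCA library reached a DMSO library, and the log2 fold change was -0.17 (SE 0.06, adjusted p = 0.152, interval 0.814- to 0.978-fold). Gclm (chr3:122245557-122267215, plus strand), the modifier subunit of the same enzyme, had 249.6, 239.8 and 254 CPM in OCA libraries, against 214, 247 and 244 CPM in DMSO libraries. Here the groups overlapped, with a log2 fold change of 0.08 (SE 0.07), at an adjusted p of 0.59 (interval 0.954- to 1.17-fold). Gsr, which reduces oxidised glutathione with NADPH, stood at -0.12 on the log2 scale (SE 0.08, adjusted p = 0.438), and OCA A, at 119.6 CPM, was its lowest library.

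The thioredoxin and peroxiredoxin genes did not move beyond the spread between libraries. None of the 5 passed the test, their log2 fold changes ran from 0.04 to 0.10, and the groups overlapped in each. Txnrd1 (chr10:82859206-82897724, plus strand), the cytosolic thioredoxin reductase, had 781, 860.1 and 905 CPM in OCA libraries, against 758, 905 and 814 CPM in DMSO libraries. Both groups thus covered almost the same range, with a log2 fold change of 0.04 (SE 0.09), at an adjusted p of 0.84 (interval 0.908- to 1.16-fold). Srxn1 (chr2:152105524-152111376, plus strand), sulfiredoxin, which reactivates overoxidised peroxiredoxins, had 439.99, 457 and 501 CPM in OCA libraries, against 422, 474 and 459.6 CPM in DMSO libraries. Its log2 fold change was 0.05 (SE 0.08, adjusted p = 0.784, interval 0.926- to 1.15-fold). Txn1, thioredoxin itself, and the peroxiredoxin genes Prdx1 and Prdx6 had log2 fold changes of 0.10 (SE 0.08), 0.04 (SE 0.07) and 0.07 (SE 0.08).

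Nqo1 (chr8:107388225-107403205, minus strand), a quinone reductase and common readout of NRF2, had 261, 282 and 277 CPM in OCA libraries, against 242, 289 and 261 CPM in DMSO libraries. The highest and the lowest of the 6 libraries were both DMSO libraries, and the log2 fold change was 0.05 (SE 0.07, adjusted p = 0.763, interval 0.930- to 1.15-fold). Aox1, aldehyde oxidase, and Cbr3, a carbonyl reductase, had log2 fold changes of -0.02 (SE 0.10) and 0.03 (SE 0.07).

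None of the 5 glutathione transferase genes passed the test. Gsta4, which conjugates lipid aldehydes such as hydroxynonenal, had 114, 103 and 111 CPM in OCA libraries, against 89.4, 100.7 and 101 CPM in DMSO libraries. The OCA libraries were all higher, with OCA B close to DMSO C, and the log2 fold change was 0.17 (SE 0.07) at an adjusted p of 0.192. The other transferase genes, Gsta3, Gstm1, Gstm2 and Gstp1, lay between -0.08 and 0.13, with overlapping groups. Gsta3 was the least abundant of the 35 genes per length, at 7.77 CPM per kilobase, and its SE of 0.17 was the widest.

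Among the 5 genes that supply NADPH none passed the test and 4 lay above 0. Tkt, transketolase of the pentose phosphate pathway, had 385, 371 and 394 CPM in OCA libraries, against 309.6, 372 and 332 CPM in DMSO libraries. Its log2 fold change was 0.18 (SE 0.07, adjusted p = 0.186), and only DMSO B reached the OCA range. G6pdx, the first enzyme of that pathway, had 226, 231 and 242 CPM in OCA libraries, against 198, 224 and 220.04 CPM in DMSO libraries. Its groups did not overlap, though OCA A and DMSO B were close, and the log2 fold change was 0.13 (SE 0.07, adjusted p = 0.33). Pgd, the next dehydrogenase of the pathway, Taldo1, transaldolase, and Me1, malic enzyme, had log2 fold changes of 0.07 (SE 0.08), 0.13 (SE 0.08) and -0.03 (SE 0.06).

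The haem and iron genes were the most abundant of the list per length. Hmox1 (chr8:75093618-75100593, plus strand), haem oxygenase 1, which is induced by NRF2 once BACH1 leaves its enhancers, had 468, 510.2 and 519.6 CPM in OCA libraries, against 419, 529 and 464 CPM in DMSO libraries. As for Nqo1, DMSO libraries held both the highest and the lowest value, and the log2 fold change was 0.09 (SE 0.08, adjusted p = 0.624). Its interval reached from 0.940- to 1.20-fold. The ferritin chain genes Ftl1 and Fth1, which encode the iron store, were at 0.15 (SE 0.09, adjusted p = 0.38) and 0.18 (SE 0.08, adjusted p = 0.26) on the same scale. Fth1, at 511 CPM per kilobase, and Ftl1, at 447 CPM per kilobase, exceeded Hmox1 at 309 CPM per kilobase.

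The genes against superoxide and peroxide held the other call. Sod3 (chr5:52363804-52369738, plus strand), the extracellular superoxide dismutase, had 109.9, 159.8 and 119.7 CPM in OCA libraries, against 95, 111 and 89.5 CPM in DMSO libraries. OCA B stood apart from the other OCA libraries, and the groups overlapped because OCA A lay just below DMSO B. The log2 fold change was 0.40 (SE 0.11, interval 1.13- to 1.54-fold, adjusted p = 0.0327). The call was lost without OCA B, where the log2 fold change was 0.23, and without DMSO A or DMSO C, where it was 0.38 and 0.34. Sod1 and Sod2, the cytosolic and mitochondrial superoxide dismutases, had log2 fold changes of 0.12 (SE 0.07) and -0.08 (SE 0.07). Cat, catalase, and the glutathione peroxidase genes Gpx1 and Gpx4 had log2 fold changes of 0.09 (SE 0.07), 0.04 (SE 0.07) and 0.16 (SE 0.08), and none of these passed the test.

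**Figure D2:**
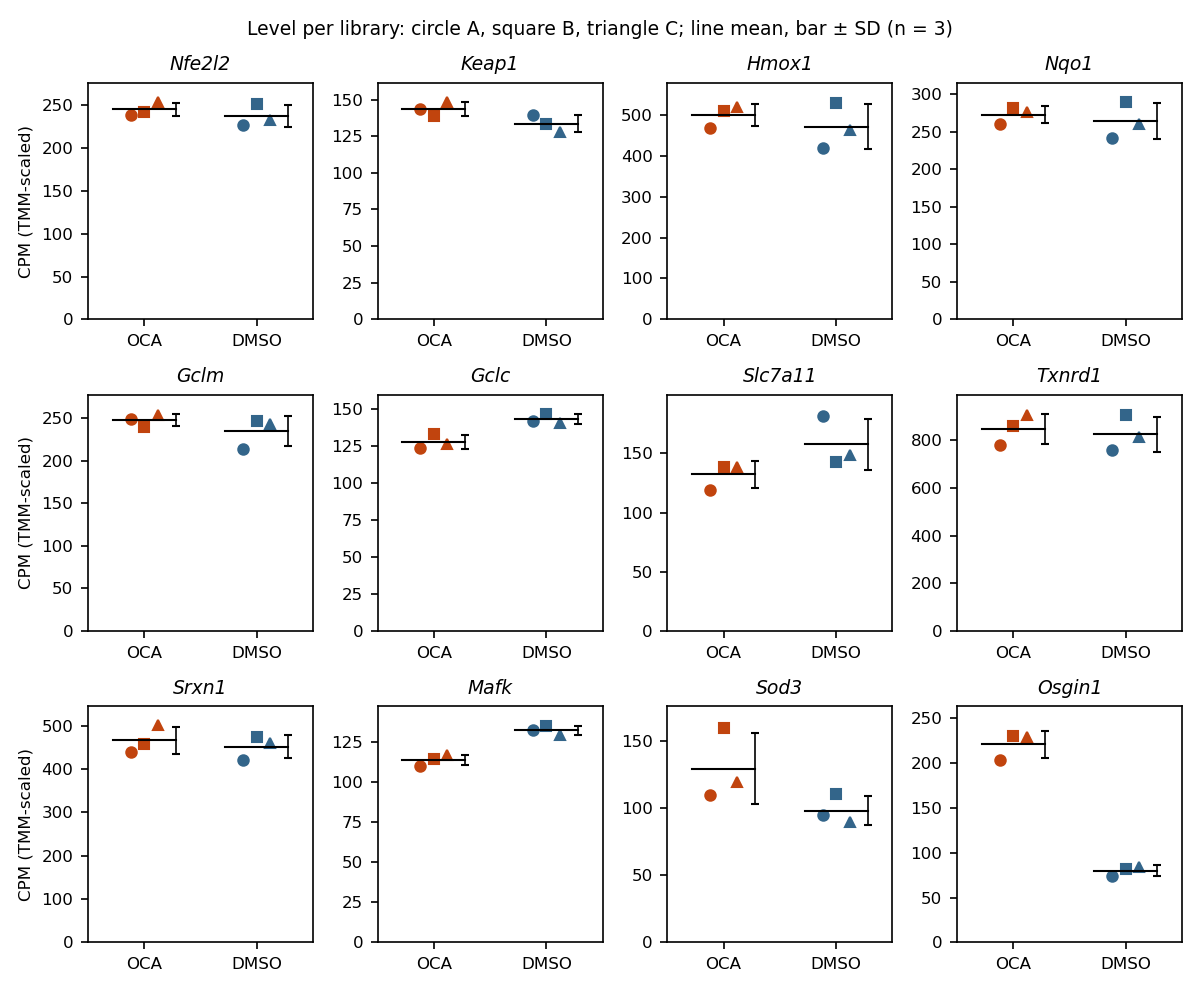
CPM in each library (circle A, square B, triangle C) with the mean and SD of each group (n = 3) for NRF2, KEAP1, 7 NRF2 readout genes, both genes called among the 35 and Osgin1; every axis starts at 0. OCA and DMSO libraries overlap in Nfe2l2, Keap1, Hmox1, Nqo1, Gclm, Txnrd1, Srxn1 and Sod3, while the OCA libraries of Osgin1 lie between 204 and 230.3 CPM and its DMSO libraries between 73.4 and 84.5 CPM.

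The 7 genes commonly used to read NRF2 activity (Hmox1, Nqo1, Gclm, Gclc, Txnrd1, Srxn1 and Slc7a11) had 0 calls by edgeR in either direction. With 5.2% of all tested genes called, 0 calls among 7 genes is near the background. At an unadjusted p under 0.05 there were 2 of the 7, both lower (28.6%, against 19% of all tested genes). DESeq2 and limma-voom also called 0 of the 7. The highest upper bound of their 95% intervals was 1.20-fold, for Hmox1, and the lowest lower bound was 0.740-fold, for Slc7a11, whose log2 fold change was -0.14 without DMSO A. The next lower bound was 0.814-fold, for Gclc. A p above the threshold does not show that a gene did not change. Each bound gives the size that the interval of that single gene still allows with TMM scaling, and the bounds do not hold jointly. Over the 20 alternatives the log2 fold change ran from -0.04 to 0.18 for Hmox1 and from -0.32 to -0.08 for Slc7a11. Over the 33 genes that were not called, the bounds were 1.32-fold for Mafg and 0.740-fold for Slc7a11, next to 0.741-fold for Gsta3, and 27 of the 33 intervals included no change.

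Osgin1 (chr8:119437162-119446256, plus strand), an oxidative stress-induced growth inhibitor, did rise. It had 204, 230.3 and 228 CPM in OCA libraries, against 73.4, 81.8 and 84.5 CPM in DMSO libraries. The log2 fold change was 1.47 (SE 0.07, interval 2.49- to 3.07-fold), and the call held under all 20 alternatives, with values between 1.38 and 1.52. Its change of 2.76-fold was thus larger than the upper bound of every one of the 35 genes, the highest of which was 1.54-fold for Sod3.

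The wider pathway was read from 69 further genes, of which 65 were tested. Of the 14 tested regulators 1 was lower, of the 30 tested target genes 1 was higher (Osgin1), and of the 21 tested other antioxidant genes none passed. Over all tested genes, 2.18% were higher and 3.03% lower. Without Osgin1, 0 of 64 tested genes were higher by edgeR, which is near the background of 2.18%. An unadjusted p under 0.05 upward was reached by 7 of the 64, against 8.26% of all tested genes. In either direction the share at that p was 15.6%, against 19% of all tested genes. DESeq2 and limma-voom each called 1 of the 64 higher, Ephx1. Bach1 (chr16:87698954-87733346, plus strand), the repressor that competes with NRF2 for AREs, fell to 52.2, 55.6 and 54.0 CPM in OCA libraries, against 71.9, 60.5 and 64.2 CPM in DMSO libraries. The groups did not overlap, the log2 fold change was -0.28 (SE 0.08) at an adjusted p of 0.0473, and the call held under 9 of 20 alternatives. Of the fits that left out 1 library, only that without OCA B kept it, and with length and counts-per-base offsets the value was -0.18. Bach1 and Hmox1, a gene it is known to repress, thus stand with a lower level of the one and a log2 fold change of 0.09 for the other.

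Sqstm1 encodes p62, which binds KEAP1 and is itself an NRF2 target. It had 709, 726 and 772 CPM in OCA libraries, against 603, 756 and 652 CPM in DMSO libraries, with overlapping groups and a log2 fold change of 0.13 (SE 0.09) at an adjusted p of 0.416. Ephx1, the microsomal epoxide hydrolase, fell just short of the threshold at 351, 346 and 347 CPM in OCA libraries, against 271, 325 and 281 CPM in DMSO libraries (log2 fold change 0.25, SE 0.07, adjusted p = 0.0543). In the other direction Txnip, which encodes an inhibitor of thioredoxin, had 139, 155 and 148 CPM in OCA libraries, against 168, 175 and 169 CPM in DMSO libraries. The groups did not overlap, and the log2 fold change was -0.21 (SE 0.06) at an adjusted p of 0.0623. Txnip was called lower in 11 of 20 alternatives, DESeq2 among them, and Ephx1 was called higher in 8. Both were singled out after their values were seen. Nfe2l3, Abcc2, Gpx2 and Gstm3 did not pass the filter on low counts.

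Although few genes passed the test, 26 of the 35 had a log2 fold change above 0 (74.3%) and 9 below, against 50.2% above 0 among all tested genes. The median was 0.07, against 0.00076 over all tested genes. This upward share stood beside a property of the libraries. DMSO B, the shallowest library, was the highest DMSO library in 29 of the 35 genes, or 82.9%, against 34.2% of all tested genes. DMSO A, the deepest, was the lowest in 25, against 36.4% of all tested genes. In the OCA group, OCA C, its shallowest library, was the highest in 24 genes (68.6%, against 32.1% of all tested genes). OCA A, which was not the deepest OCA library, was the lowest in 24, against 35.3% of all tested genes. The median log2 ratio of DMSO A over DMSO B was -0.219 over the 35 genes and 0.0049 over all tested genes. These 2 vehicle libraries are the extremes of their group for most of the 35 genes. Their ratio therefore cannot be set against the 0.07 between groups of 3 libraries. Summed over the 35 genes, OCA libraries A, B and C had 7912, 8241 and 8549.9 CPM and DMSO libraries 7284, 8504 and 7739 CPM. Only OCA C lay above DMSO B.

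A shift of the same direction was seen in the median of densely covered genes. When all tested genes were divided into eighths by their mean counts per base of transcript, the median log2 fold change of OCA over DMSO went up from -0.11 in the sparsest eighth to 0.09 in the densest. In the densest eighth 82.8% of all genes lay above 0, and the median log2 ratio of DMSO A over DMSO B was -0.182. That eighth held 24 of the 35 genes, and 23 of these 24 lay above 0, with a median of 0.08. Of the 11 genes outside it, 3 lay above 0.

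**Figure D3:**
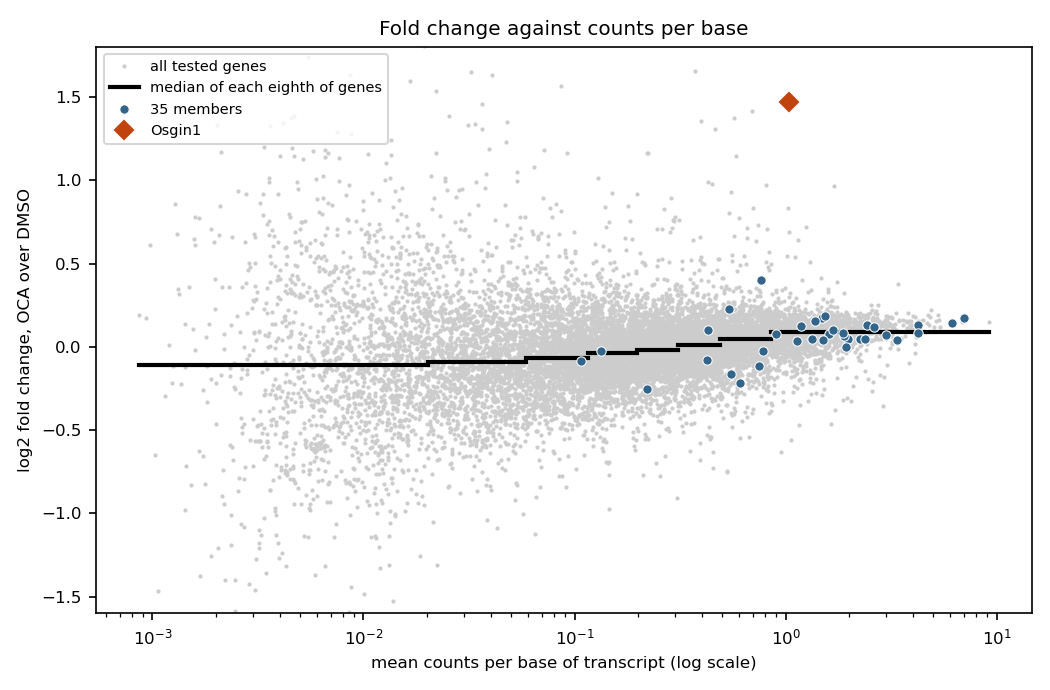
Log2 fold change of OCA over DMSO against mean counts per base of transcript (log axis) for the tested genes (grey), the 35 genes (blue) and Osgin1 (orange diamond); black lines are the medians of eighths of all tested genes, and 27 genes lie outside the vertical axis. The medians go up with counts per base, from -0.11 to 0.09, and most of the 35 genes lie in the densest eighth around its median, with Osgin1 far above.

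When each library was given an offset from a smooth trend over transcript length and counts per base, 10 of the 35 genes lay above 0 and 25 below, with a median of -0.02. The sign turned to below 0 with this scaling in 17 genes and to above 0 in 1, Aox1. None of these was called, and some lay very close to 0, such as Taldo1 at -0.00063 (SE 0.03). Among those that turned to below 0 were the readout genes Hmox1 at -0.04 (SE 0.03) and Nqo1 at -0.06 (SE 0.04). Txnrd1 at -0.03 (SE 0.03), Srxn1 at -0.03 (SE 0.04) and Gclm at -0.0034 (SE 0.04) did so too. Sod3 stood at 0.34 (SE 0.12), close to its value of 0.40 with TMM scaling, but was not called (adjusted p = 0.12), and Mafk kept both (adjusted p = 0.00854). Slc7a11 moved to -0.10, while Gclc stood at -0.18 (SE 0.05) and was not called (adjusted p = 0.0529). The value for Osgin1 was 1.39. These offsets were chosen after the data had been seen. They take out any difference between libraries that follows transcript length or counts per base, whatever its source. Genes near the median of their eighth therefore move towards 0 by construction, and the source of the upward share was not tested.

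**Figure D4:**
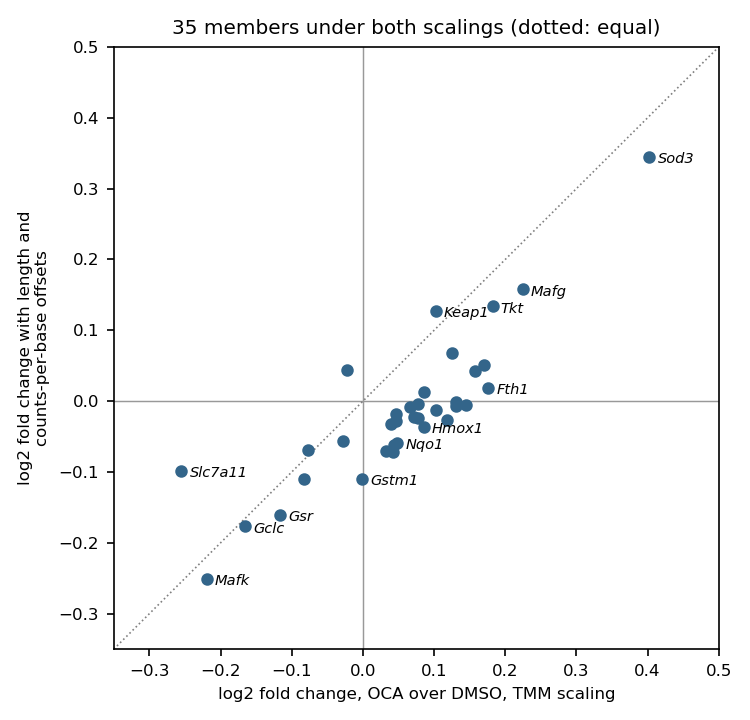
Log2 fold change of OCA over DMSO for the 35 genes with TMM scaling (horizontal) and with offsets for transcript length and counts per base (vertical); the dotted line marks equal values. Most genes above 0 with TMM scaling lie at or below 0 with the offsets, Sod3 stays the highest and Mafk the lowest with the offsets.

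The counts of several genes are uncertain because their transcripts share sequence with other genes. By stretches of 50 bases in the GENCODE M21 transcripts, over 10% of the transcript was shared with another gene in 8 of the 35 genes, Ftl1 (78.9%), Gpx4 (68.9%), Gstp1 (62.3%), Me1 (27.0%), Gstm1 (23.1%), Sod1 (23.1%), Taldo1 (12.4%) and Prdx1 (10.9%). In 17 genes, among them Sod3, Mafk, Nfe2l2, Keap1, Hmox1, Nqo1, Gclc, Txnrd1 and Srxn1, no such stretch was shared. Mafg shared 1.54% with Sirt7. The GENCODE transcripts searched can differ in length from those counted. Mafg had 4874 stretches against a counted length of 1631 bases, and Prdx6 had 910 against 2481 bases. The sources used here do not give how the authors' counting treated reads with several matches, or whether it used strand.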

How the data were processed

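RNA sequencing of polyadenylated RNA, with NEBNext Ultra libraries per the labels' protocols, was processed with STAR, HOMER and the build mm10, per the submitters' processing notes. The sources used here do not give their settings. The authors deposited exon counts per gene in steps of 0.5, handled like expected counts: 26.5% to 29.8% of each column was not whole, and all values were rounded to whole numbers (ties to even). Of the libraries' columns, 0 were left out. Floors of 3 counts equal 0.181 to 0.251 CPM and cover counting error only.

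OCA was compared with DMSO by edgeR 4.0.16 in R 4.3.3 (filterByExpr, TMM, quasi-likelihood test, two-sided, no replicate block), with Benjamini-Hochberg adjustment over 12687 genes and a threshold of 0.05. The common biological coefficient of variation was 7.98%. An SE is the size of the log2 fold change over the square root of F, and intervals are 95%. Alternatives were DESeq2 1.42.0, limma-voom (limma 3.58.1), other scalings and filters, a replicate block, robust estimation, unrounded values, each library left out, OCA B and DMSO A left out, and loess offsets (span 0.5) on transcript length; offsets on counts per base, alone and with length, were added after seeing the data.

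The 35 genes, the 69 further pathway genes, the marker lists and the offsets were chosen with earlier results of these data known. All 35 genes are named; values per library are given for those called, for Nfe2l2, Keap1, the 7 readout genes, Osgin1, Sqstm1 and Bach1, and for some others chosen after their values were seen. Promoter windows are from RefSeq (GRCm38.p6), transcripts from GENCODE M21.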

Additional observations from a re-analysis of the deposited data

How the results depend on the processing

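Sod3, Mafk, Osgin1 and Bach1, the pathway genes called with all libraries, kept their direction in all 20 alternatives; directions of the other genes called over the whole table were not compared. The 35 genes gave 0 higher calls with robust estimation and with both kinds of counts-per-base offsets. They gave 2 lower calls without the low-count filter (Mafk and Slc7a11), and 0 lower calls with the replicate block, with unrounded values and without OCA B and DMSO A. Their median log2 fold change of 0.07 moved to -0.0257 with counts-per-base offsets and to -0.0217 with length and counts-per-base offsets; the cause was not tested. Over the fits that left out 1 library, 0 to 4 of the 35 genes were higher, 0 to 1 lower, and the median ran from 0.01 to 0.12. The 4 higher calls, Tkt, Ftl1, Fth1 and Sod3, came without DMSO B, and the 1 lower call, Slc7a11, without OCA B. Sod3 was called in 13 of the 20 alternatives (log2 fold change 0.20 to 0.51, adjusted p by edgeR, DESeq2 or limma 7.55e-06 to 0.245) and Mafk in 11 (-0.25 to -0.20, 0.00854 to 0.190).

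Of the further pathway genes, 2 were higher with DESeq2, limma-voom, library totals, robust estimation, both offsets together and without OCA B and DMSO A, and 3 without the filter and with the block. Of them 2 were lower with upper quartile scaling, the block, robust estimation, each of the 3 kinds of offsets, without the filter and without OCA B and DMSO A. With 1 library left out, 1 to 3 were higher and 0 to 2 lower. Over all genes, 161 to 363 were then higher and 104 to 758 lower, against 276 and 384 with all libraries. There were 703 lower genes without the filter, 605 without OCA B and DMSO A, 227 with length offsets and 231 with both offsets. Of all calls, 41.8% were higher, 60.6% with length offsets and 60.4% with both. Among the 29 of the 35 genes with a promoter window, the stricter motif TGACTCAGC was found in 6.9%, against 41.4% for the core.

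Whether the replicate letters pair the libraries is not in the labels. Deviations from the group mean correlated at 0.000511, -0.0433 and 0.0535 between same-lettered libraries. Between libraries of different letters the values ran from -0.0803 to 0.0795. With 3 libraries a group these values cannot decide whether the letters pair libraries. The block gave 306 higher and 508 lower genes. With 3 libraries a group and a coefficient of variation of 7.98%, the intervals of the 7 readout genes still allow increases up to 1.20-fold and decreases down to 0.740-fold. This holds for each gene taken singly and with TMM scaling. The part of library depth in the small upward values was not tested.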
